A study of Danio rerio with 2 samples.

Results

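Of 8 regulators of tissue-specific splicing, rbfox1l and mbnl1 were lower, esrp1 was higher and the other 5 lay less than 2-fold apart in the EGFP-positive cells of crestin_1kb:EGFP zebrafish embryos. The 8 genes are rbfox1l, rbfox2, mbnl1, mbnl2, esrp1, esrp2, ptbp1a and celf1. They were taken by symbol from 14428 gene rows of the deposited table, and all 8 had a row of their own. They were chosen because rbfox1l is among the genes lowest in the EGFP-positive against the EGFP-negative cells, and they were named with results of this contrast known. The differences between the libraries are therefore given as a description, with no test.

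Both groups came from zebrafish (Danio rerio) embryos carrying the crestin_1kb:EGFP transgene, in which a piece of the regulatory DNA of crestin, a neural crest gene, drives the green fluorescent protein EGFP. Embryos were grown to 15 SS and broken up into single cells, which were sorted by their fluorescence. About 5500 EGFP-positive cells gave 1 library, and 100000 EGFP-negative cells, a mixture of cell types, gave the other. The number of embryos behind each fraction is not given in the sources used here. With 1 library per group there is no spread between replicates, so no test between the fractions was possible.

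Splicing regulators of this kind bind short motifs in pre-mRNA and decide which exons a tissue includes. Rbfox proteins bind UGCAUG elements and act in muscle, heart and neurons, and muscleblind (Mbnl) proteins, which bind short elements with a GC core, drive the later splicing programme of muscle. Celf proteins often act against Mbnl on the same muscle exons. Esrp proteins maintain the epithelial form of many transcripts, and polypyrimidine tract-binding (Ptbp) proteins hold back neuronal and muscle exons in other cells.

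Levels are in FPKM, fragments per kilobase of transcript scaled also to the number of mapped fragments, which corrects for gene length, so levels of different genes can be set side by side. Differences between libraries are log2(FPKM + 1) in the EGFP-positive minus the EGFP-negative library. Genes 2-fold or more apart on that scale are called higher or lower. The pseudocount of 1 FPKM understates the difference of low genes. A value of exactly 0 may be a failed estimate, so such genes are only said to be listed at 0. A ratio of FPKM is the plain quotient of the deposited values, and where values are set as one against another, the EGFP-positive library comes first. Of 21 neural crest markers set beside the sort label, 16 were higher and none lower in the EGFP-positive library. Sox10, a factor of the crest and its pigment and glial derivatives, was at 147 against 16.3 FPKM. The marker list was chosen with earlier results of these data known, so it is no independent check of the label. The small nuclear RNA rn7sk took 13.9% against 6.85% of all FPKM.

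Among the 8 regulators, 1 was higher, 2 were lower and 5 lay between. Over the 9685 genes at 1 FPKM or more in either library, 22.9% were higher, 26.5% were lower and 50.6% lay between. Over the 7449 of them above 0 in both libraries, as all 8 regulators were, the shares were 17.8%, 16.5% and 65.7%. The median difference was -0.45 over the 8 regulators and -0.04 over all 9685 genes. Nothing is read from these shares, since the regulators were chosen on this contrast. The shares over the 9685 genes are also set beside the counts of gene lists. They include 1343 genes listed at 0 among EGFP-positive cells and 893 listed at 0 among EGFP-negative cells. The rule always calls such genes. For a list with few of them, 17.8% higher and 16.5% lower are the closer background. In bulk samples, fewer cells of a type and less RNA per cell cannot be told apart.

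**Figure D1:**
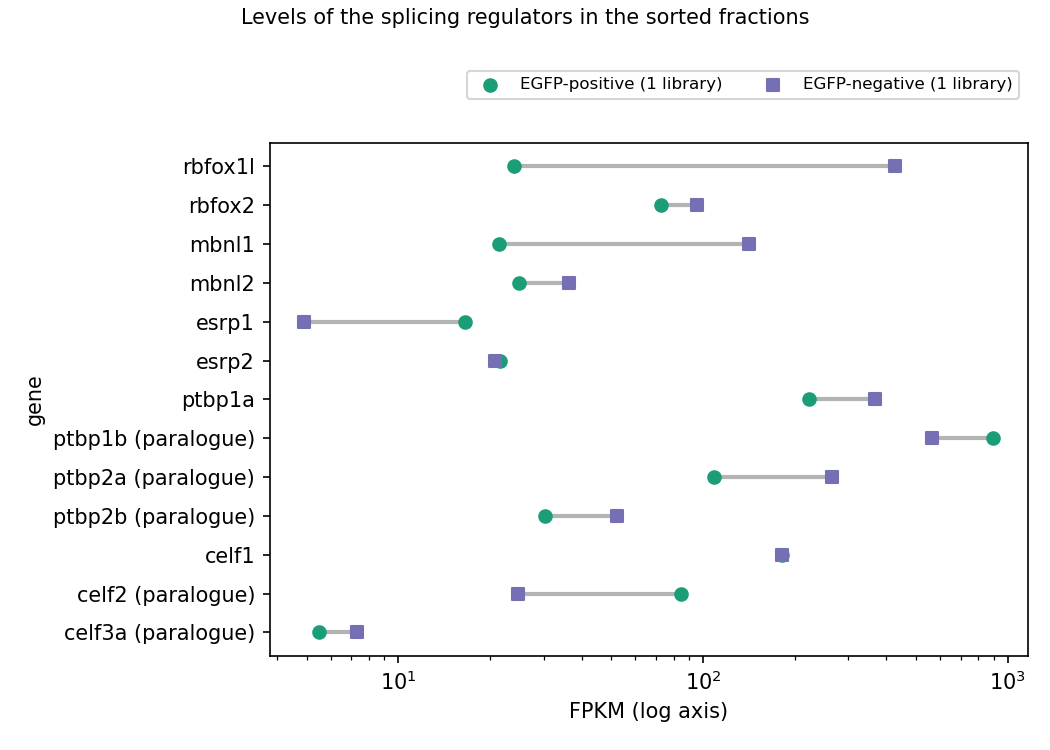
FPKM (log axis) of the 8 splicing regulators and of the 5 paralogues above 0, with a circle for the EGFP-positive and a square for the EGFP-negative library, 1 library each and no error bars. The widest gap is that of rbfox1l, from 24.0 to 427 FPKM, and the symbols of celf1 and of esrp2 lie on top of each other.

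Rbfox1l, the zebrafish Rbfox gene of skeletal and heart muscle, stood at 24.0 FPKM in EGFP-positive cells and at 427 FPKM in EGFP-negative cells. It was the most abundant of the 8 in the EGFP-negative library and ranked 5 of 8 in the EGFP-positive one. The ratio of FPKM was 17.8 in favour of the EGFP-negative cells, a difference of -4.10 on the log2 scale. In the EGFP-negative library 96.8% of the genes above 0 had a lower level than rbfox1l, and in the EGFP-positive library 52.8% did. Among genes above 0 in both libraries its difference ranked 9 from the lowest, between tbx6 (-4.20), a T-box factor of unsegmented mesoderm, and nkd2b (-3.93), a Wnt pathway inhibitor gene. Among all 9685 genes, with those listed at 0 in 1 library, the rank of rbfox1l was 428. Rbfox1l was thus much lower in the EGFP-positive library without being at 0 there.

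Rbfox2, the paralogue with broad expression that shares muscle targets with rbfox1l in zebrafish, was at 72.9 against 95.2 FPKM. The difference was -0.38, less than 2-fold. Rbfox1, known for its role in neurons, was listed at 0 in both libraries. The order of rbfox1l and rbfox2 differed between the fractions. Rbfox1l was 4.49 times the level of rbfox2 in the EGFP-negative library, and rbfox2 was 3.04 times the level of rbfox1l in the EGFP-positive library. Summed over the family, Rbfox FPKM was 97.0 against 523, and rbfox1l made up 24.8% of it in EGFP-positive and 81.8% in EGFP-negative cells. Family sums and shares, here and below, cover only genes with a row of their own and count those listed at 0 as 0.

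Most muscle markers were lower in the same library as rbfox1l. Of 17 skeletal muscle markers at 1 FPKM or more, 11 were lower, 1 was higher and 5 lay between, with a median difference of -2.19 and a summed level of 193 against 584 FPKM. Of 10 cardiac muscle markers 9 were lower and none was higher, the median being -2.69 and the summed level 451 against 2632 FPKM. Listed at 0 in the EGFP-positive library were the fast myosin light chain mylz3 (36.9 FPKM in the other), the heart factor nkx2.5 (37.3 FPKM) and the cardiac troponin T gene tnnt2a (6.31 FPKM). Other muscle genes were above 0 there, with myf5, a muscle determination factor, at 5.12 against 55.2 FPKM, vmhc, the ventricular myosin, at 0.431 against 28.6 FPKM and tnni1b, a cardiac troponin I gene, at 8.91 against 131 FPKM. The cardiac markers with the highest levels were lower too, yet still abundant among EGFP-positive cells. Myl7 was at 156 against 1107 FPKM, cmlc1 at 103 against 612 FPKM and actc1a, outside the naming rule, at 178 against 686 FPKM. Each thus exceeded the 24.0 FPKM of rbfox1l among EGFP-positive cells. The 1 higher skeletal muscle marker was the fast troponin T gene tnnt3b, at 8.29 FPKM against a value listed at 0. Outside the naming rule, the myogenic factor myod1 stood at 29.4 against 61.6 FPKM, and myog, a factor of muscle differentiation, at 19.8 against 13.0 FPKM, less than 2-fold apart. The part of muscle RNA in the difference of rbfox1l was not tested.

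**Figure D2:**
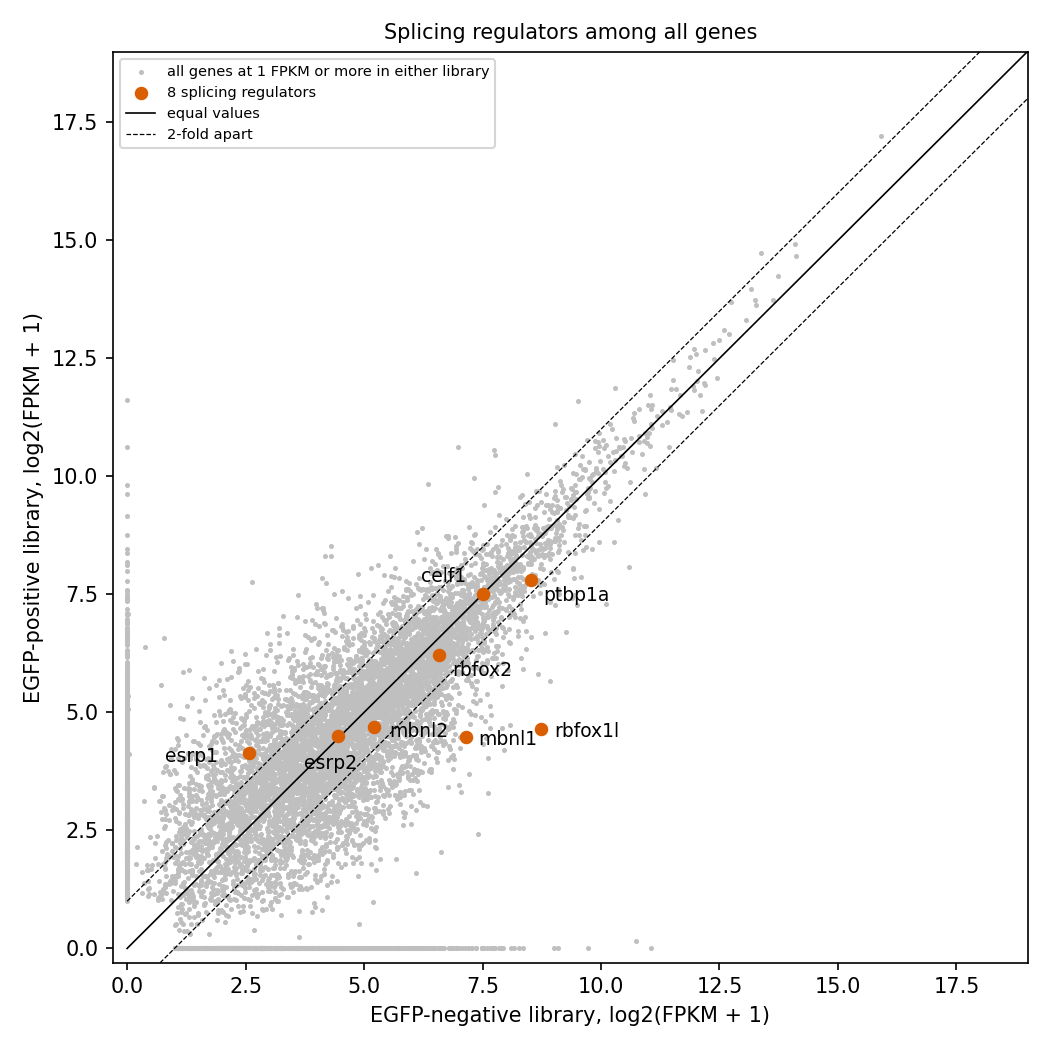
Each gray point is a gene at 1 FPKM or more in either library, by its log2(FPKM + 1) in the EGFP-negative (horizontal) and the EGFP-positive library (vertical), with the 8 splicing regulators in orange and dashed lines at 2-fold. Rbfox1l and mbnl1 lie below the lower dashed line, esrp1 above the upper one, and the other 5 between the lines.

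Mbnl1, the muscleblind gene best known for its loss of function in myotonic dystrophy, was at 21.4 FPKM in EGFP-positive cells and at 142 FPKM in EGFP-negative cells. The ratio of FPKM was 6.63 in favour of the EGFP-negative cells, a difference of -2.67. Its difference ranked 81 from the lowest among the 7449 genes above 0 in both libraries, and 909 among all 9685 genes. Mbnl1 and rbfox1l were thus at close levels in the EGFP-positive library, 21.4 and 24.0 FPKM, and both higher in the EGFP-negative one.

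Mbnl2, a paralogue that in mammals acts chiefly in the brain, was at 24.9 against 36.2 FPKM, a difference of -0.52 and less than 2-fold. The third muscleblind gene, mbnl3, was listed at 0 in both libraries. Mbnl1 was 3.91 times the level of mbnl2 in the EGFP-negative library, whereas in the EGFP-positive library mbnl2 was 1.16 times the level of mbnl1. Family FPKM summed to 46.2 against 178, with mbnl1 contributing 46.2% in EGFP-positive and 79.6% in EGFP-negative cells. Most, but not all, of the muscle markers given beside rbfox1l were lower in the same library as mbnl1. The part of muscle RNA in the difference of mbnl1 was not tested.

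Celf1, which acts against Mbnl on muscle exons in mammals and also promotes mRNA decay, had nearly equal levels, 181 FPKM in EGFP-positive and 182 FPKM in EGFP-negative cells. The difference was -0.01. Celf1 was 8.47 times the level of mbnl1 in the EGFP-positive library and 1.29 times in the EGFP-negative one.

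Its paralogue celf2, a regulator in heart, brain and lymphocytes of mammals, was at 84.5 against 24.7 FPKM, a ratio of 3.43 and a difference of 1.74. Celf3a, a gene of neurons, was low in both fractions, at 5.47 against 7.30 FPKM, and celf4 and celf5 were listed at 0 in both. Celf family FPKM summed to 271 against 214. Celf1 made up 66.8% of it in EGFP-positive and 85.1% in EGFP-negative cells, and celf2 31.2% and 11.5%.

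Esrp1, an epithelial splicing regulator, was the only one of the 8 called higher in the EGFP-positive library. It stood at 16.6 FPKM there and at 4.91 FPKM in the EGFP-negative library, a ratio of 3.38 and a difference of 1.57. It was the least abundant of the 8 in both libraries. Among genes above 0 in both, its difference ranked 666 from the highest. Of the 8, esrp1 was the nearest to the 2-fold size among those past it, and ptbp1a (-0.72) the nearest among those short of it.

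Esrp2, which acts with esrp1 in epithelia and in forming the zebrafish face, was at 21.6 against 20.8 FPKM, a difference of 0.05. That sign turned to -0.11 when the libraries were scaled to the same sum without rn7sk, so no direction is given for esrp2. Esrp2 was 4.23 times the level of esrp1 in the EGFP-negative library and 1.30 times in the EGFP-positive one. The pair summed to 38.2 against 25.7 FPKM, with esrp1 at 43.5% and 19.1% of the sum.

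Markers of epithelia and periderm, the outer cell layer of the embryo, had no common direction. Of 18 at 1 FPKM or more, 5 (27.8%) were higher, 4 (22.2%) lower and 9 between, beside 22.9% higher and 26.5% lower over all genes. The median was -0.22 and the summed level 1279 against 1327 FPKM. The adhesion gene epcam was at 97.4 against 22.3 FPKM and the tight junction gene cldne at 25.8 against 7.01 FPKM, and icn, a calcium-binding protein gene of the skin, at 40.2 FPKM against a value listed at 0. On the other side, grhl2a (30.6 FPKM), a gene for an epithelial transcription factor, had a value listed at 0 among EGFP-positive cells, spint1a, a protease inhibitor gene of the epidermis, was at 7.25 against 21.2 FPKM, and st14a, a membrane protease gene, at 6.73 against 18.0 FPKM.

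Other epithelial tissues were also looked at, with lists added when their values were known, so nothing is read from their counts. Of 12 pronephros (embryonic kidney) genes, 7 (58.3%) stood higher and 2 (16.7%) lower, beside 22.9% and 26.5% over all genes. The median was 1.40 and the summed level 345 against 263 FPKM. Of 6 hatching gland genes, 3 (50%) stood higher and 1 (16.7%) lower, with a summed level of 1887 against 830 FPKM. A single gene held 1004 FPKM of the EGFP-positive sum. The part of these tissues, and of epidermis, in the difference of esrp1 was not tested.

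Ptbp1a, a repressor of neuronal and muscle exons, was at 224 FPKM in EGFP-positive cells and at 368 FPKM in EGFP-negative cells. The difference was -0.72, less than 2-fold. It was the most abundant of the 8 in the EGFP-positive library and ranked 2 of 8 in the EGFP-negative one. Its duplicate ptbp1b was more abundant in both fractions and differed the other way, at 895 against 566 FPKM, a difference of 0.66 that was also less than 2-fold. The 2 duplicates can share reads, so how the reads were divided between them is uncertain. The same may hold for other pairs named here, such as sox21a and sox21b or ldb3a and ldb3b. Their summed level was 1119 against 933 FPKM, a ratio of 1.20, with ptbp1a at 20.0% and 39.4% of it.

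Ptbp2, which in mammals replaces Ptbp1 as neurons form, is also present as a duplicated pair. Ptbp2a was at 108 against 265 FPKM, a difference of -1.28, and ptbp2b at 30.3 against 52.2 FPKM, a difference of -0.77. Both were thus below their EGFP-negative levels, ptbp2a by more than 2-fold. Summed over the 4 Ptbp genes, FPKM was nearly equal, 1257 against 1251. Ptbp1b made up 71.2% of the sum in EGFP-positive and 45.2% in EGFP-negative cells, and ptbp2a 8.63% and 21.2%.

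Neuron markers gave no common direction beside these values. Of 14 at 1 FPKM or more, 4 (28.6%) were higher and 5 (35.7%) lower, beside 22.9% and 26.5% over all genes. The median difference was 0.29 and the summed level 320 against 262 FPKM. The proneural factor neurog1 (40.9 FPKM) and the sensory neuron factor pou4f1 (16.2 FPKM) had values listed at 0 among EGFP-negative cells, and the synaptic gene snap25a (5.53 FPKM) among EGFP-positive cells. Neural progenitor markers had 2 higher and 4 lower of 13, a median of -0.50 and a summed level of 243 against 442 FPKM, and dbx1b (117 FPKM) and sox21a (40.3 FPKM), factors of neural tube progenitors, had values listed at 0 among EGFP-positive cells. In the other direction, olig4 (34.1 FPKM) was listed at 0 among EGFP-negative cells, and sox21b stood at 14.5 against 2.30 FPKM. The part of neural cells in the differences of the Ptbp genes was not tested.

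**Figure D3:**
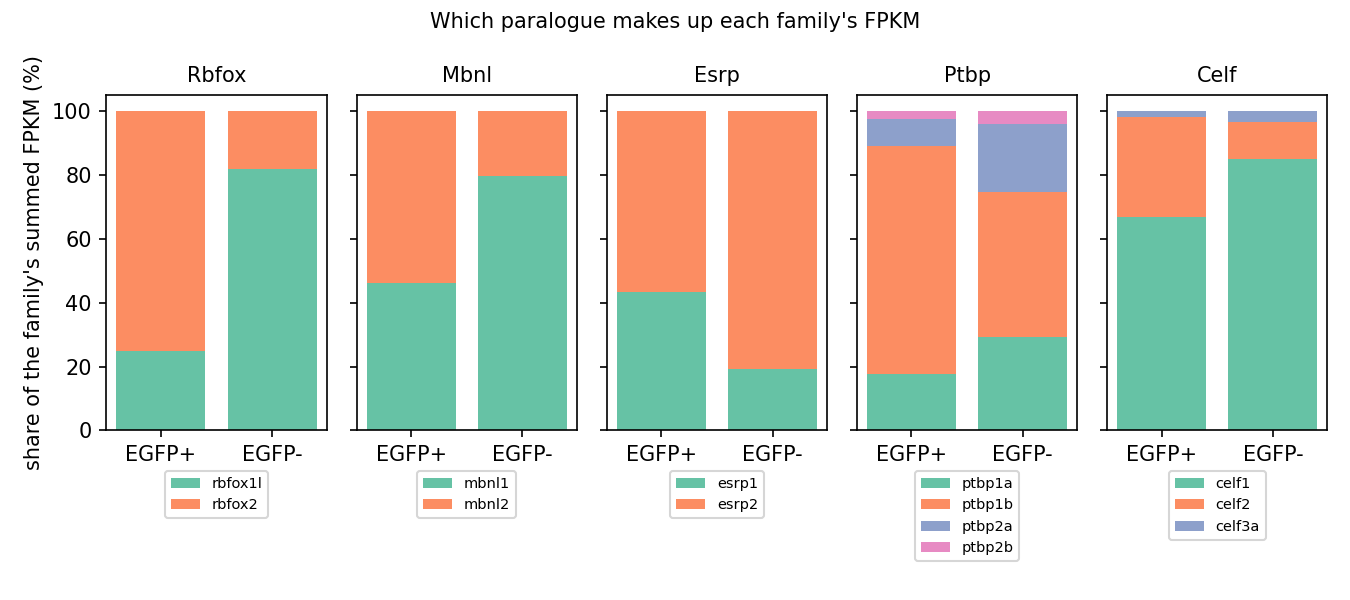
Stacked bars give the share of each family's summed FPKM (%) held by each paralogue above 0, in the EGFP-positive (EGFP+) and the EGFP-negative (EGFP-) library, 1 library each. Family genes without a row are not in the sums. Rbfox1l holds 24.8% of the Rbfox sum in EGFP-positive and 81.8% in EGFP-negative cells, and mbnl1 46.2% and 79.6% of the Mbnl sum.

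Of the 17 family genes in the table, the 9 outside the 8 regulators give the wider picture. These 9 were the ones with a row among 28 other family symbols looked up. The 5 at 1 FPKM or more held 1 higher gene, celf2, and 1 lower gene, ptbp2a, with a median difference of -0.36, and the remaining 4 were listed at 0 in both libraries. In each of the 5 families at least 1 gene was above 0 in both fractions, so that a Rbfox, Mbnl, Esrp, Ptbp and Celf transcript was measured in the EGFP-positive cells. The EGFP-negative sum was 5.39 times the EGFP-positive one for Rbfox and 3.85 times for Mbnl. The EGFP-positive sum was 1.49 times the EGFP-negative one for Esrp and 1.27 times for Celf. Scaled to the same sum without rn7sk, these became 1.32 times for Esrp and 1.12 times for Celf. For Ptbp the ratio was 1.01, and 0.892 after scaling to the same sum without rn7sk, so no direction is given.

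A wider list held other splicing regulators, some with tissue-restricted roles and some with broad expression. Of 25 in the table, 24 reached 1 FPKM, of which 8 (33.3%) were lower, 1 (4.17%) was higher and 15 lay between. Over all genes 26.5% were lower and 22.9% higher, so the lower share was near the background and the higher share below it. Neither share was tested. The median difference was -0.76, beside -0.04 over all genes. Scaled to the same sum without rn7sk, 11 of the 24 were lower, beside 2818 of 9671 genes. With genes above 0 in both libraries only, 6 of 22 were lower and 1 was higher, beside 16.5% lower and 17.8% higher of all such genes. How near the lower share lies to the background thus depends on the scaling and on the genes at 0. Rbm24b, which regulates splicing in heart and muscle, was listed at 0 among EGFP-positive cells and stood at 46.7 FPKM among EGFP-negative cells. Its paralogue rbm24a, outside the naming rule, stood at 10.3 against 30.5 FPKM. Rbpms2b, an RNA-binding protein gene of heart and smooth muscle, was at 11.9 against 48.1 FPKM.

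Among regulators of neural cells, nova1, a splicing factor of neurons, was at 8.20 against 38.2 FPKM. The Musashi genes, which act in neural progenitors, differed among themselves. Msi1 was at 9.30 against 33.9 FPKM and msi2b at 8.43 against 28.8 FPKM, both lower, while msi2a was at 31.6 against 3.46 FPKM, the 1 higher gene of the list. As with ptbp1a and ptbp1b, how reads were divided between msi2a and msi2b is uncertain. Outside the naming rule, the other genes called lower were khdrbs1b (45.2 against 104 FPKM) and elavl4, a neuronal gene (listed at 0 against 1.02 FPKM). Of regulators with broad expression, also outside the rule, elavl1 (259 against 238 FPKM), qkia (190.2 against 228 FPKM) and khdrbs1a (2707 against 2832 FPKM) lay less than 2-fold apart. So did tia1 (106 against 204 FPKM), tial1 (14.9 against 28.1 FPKM) and tia1l (151 against 267 FPKM), each nearer to 2-fold and below its EGFP-negative level.

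Genes with exons that these proteins are known to regulate in mammals were read at the gene level only, since the table holds no exon or isoform value. Of 21 at 1 FPKM or more, 4 were higher, 7 lower and 10 between, with a median of -0.70. Fgfr2, the growth factor receptor whose epithelial and mesenchymal exons are a textbook target of Esrp, was at 53.7 against 203 FPKM, while esrp1 was higher. Muscle genes among them differed in direction. Lower were the calcium pump gene atp2a1 (6.69 against 32.8 FPKM), the Z-disc gene ldb3b (8.28 against 34.1 FPKM), besides tnnt2a given above. Outside the naming rule, the Z-disc paralogue ldb3a was higher (4.75 against 1.28 FPKM) and the muscle factor mef2ca lay between (16.9 against 21.5 FPKM). The related genes mef2aa (13.9 against 39.0 FPKM) and mef2d (3.61 against 9.68 FPKM), also outside the rule, were lower. The integrin gene itga6b was at 16.9 against 2.69 FPKM, and numb, an adaptor that restrains Notch, at 10.7 FPKM among EGFP-positive cells, was listed at 0 in the other library. These levels say nothing of which exons were used.

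**Figure D4:**
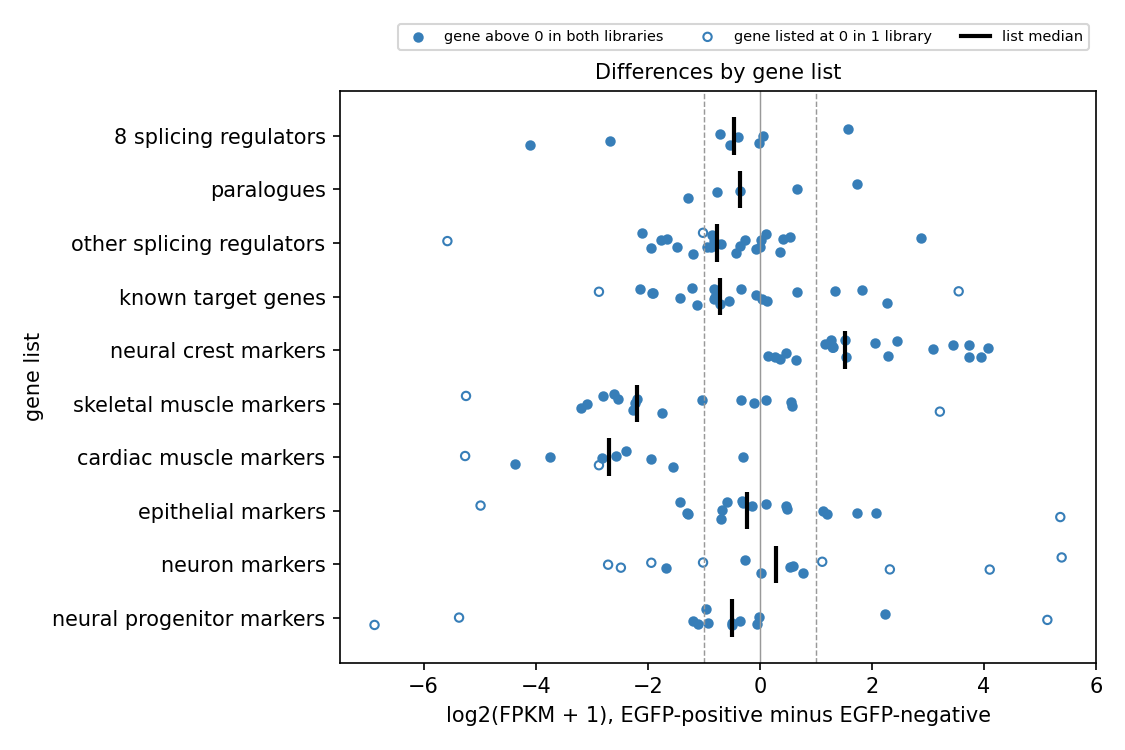
Each point is a gene, placed by its difference in log2(FPKM + 1), EGFP-positive minus EGFP-negative, with open points for genes listed at 0 in 1 library, black bars for list medians and dashed lines at 2-fold. The medians are -0.45 for the 8 splicing regulators, -0.76 for the other splicing regulators, 1.52 for neural crest, -2.19 for skeletal muscle and -2.69 for cardiac muscle markers.

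For a search by level, rows joining several symbols, locus and clone names, and all symbols starting with si, zgc, wu, im, sb or a digit were left out. Among the genes kept, those nearest to each regulator were found by the distance between their log2(FPKM + 1) values over the 2 libraries. For rbfox1l they were tbx1, a T-box factor of the pharyngeal region (25.6 against 268 FPKM, a distance of 0.68), the proteasome gene psmd8 (24.3 against 241 FPKM, 0.82) and hes6, a gene of the Hairy family (17.5 against 247 FPKM, 0.90). For mbnl1 the nearest was prpf38a, a spliceosome gene (21.3 against 137 FPKM, 0.04), and for esrp1 the histone methyltransferase gene ehmt2 (16.7 against 4.86 FPKM, 0.02). The nearest gene to celf1 was scrib, a cell polarity gene (183 against 178 FPKM, 0.04), which is also among the target genes above. Rbfox1l had the most distant neighbours of the 8 regulators among the genes kept. With 2 libraries such likeness covers 2 values a gene and says nothing of shared function.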

How the data were processed

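The authors deposited 1 table of FPKM values, with a row per gene symbol and a column per library. Columns were tied to libraries through the sample descriptions, and no column was left over. The submitters' processing notes name cutadapt, TopHat2 (2.0.11), Cufflinks (2.2.1) and build Zv9. Their options, the annotation used and any normalisation across libraries were not given in the sources used here. The values carry no total count. The ratios of 712 low genes, above 0 and below 6 FPKM, showed no steps of whole reads, so the depth is unknown and no counting interval is given. Per the labels' protocols, ribosomal RNA was depleted and a low-input kit was used.

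Genes at 1 FPKM or more in either library entered the counts, and calls were made at 2-fold on log2(FPKM + 1), with Python 3.11.15 and pandas 2.3.3. The calling code was run on EGFP-negative values with known changes put in. No noise was added, so this checked the code and not how reliable the calls are. The regulators and gene lists were chosen with earlier results of these data known. Named were all 8 regulators, every paralogue above 0, up to 6 members of each other list by size of difference, and the 3 nearest genes of each regulator, of which the text gives some. Other genes are said to be outside this naming rule. Alternatives changed the pseudocount, the minimum, the scaling and the genes at 0.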

Additional observations from a re-analysis of the deposited data

How the results depend on the processing

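The calls of the 8 regulators, 1 higher and 2 lower, were the same under pseudocounts of 0.1 and 5 FPKM and under both other scalings. They were also the same with no minimum, a minimum of 5 FPKM and genes above 0 in both libraries only. Those last settings could not change the calls, since all 8 regulators passed each filter with unchanged values. The difference of rbfox1l ranged from -4.26 to -3.90, that of mbnl1 from -2.84 to -2.48 and that of esrp1 from 1.12 to 1.74. Scaling to the same sum without rn7sk moved every gene's level in the EGFP-positive library by -0.17 on the log2 scale. Over all genes, 1325 were higher and 1228 lower when genes at 0 in 1 library were left out, against 2218 and 2571 with them. The genes left out were all called ones, because the rule always calls a gene at 0 in 1 library and at 1 FPKM or more in the other. The same 4896 genes therefore had to lie between either way. Of the called genes, 51.9% were higher without those at 0 and 46.3% with them. No paired analysis was possible because each group has 1 library. The unknown depth limits how far low values such as that of esrp1 can be read.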
